A study of Arabidopsis thaliana with 16 samples.

Results

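The cytosolic ribosomal protein genes described here are 57 nuclear genes for proteins of the large and small subunits of the cytosolic ribosome and for the stalk protein P0, out of 27444 nuclear protein-coding genes of Arabidopsis thaliana. They were taken from a set list of locus identifiers that was drawn up with their folds in these data in view. Their folds are therefore a description of the members, and no test was made on them. The gene table names 30 of the 57, and the 27 others are called by their identifiers. The 27 were not grouped by family, so some may be paralogs of each other or of named members and may share reads.

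RNA was sequenced from 3 transgenic lines in the ein3-1eil-1 background, which lacks the ethylene transcription factor EIN3 and its relative EIL1, with 2 libraries a line. The lines carried EIN2C-EIN3DB (by its name the carboxyl-terminal part of the ethylene signalling protein EIN2 joined to the DNA-binding domain of EIN3), EIN2C-EIN3DBK245N (the same fusion with a substitution in the EIN3 part) or EIN2S645A (EIN2 with a serine replaced and no EIN3 domain, by its title; the series design writes EIN2CS645A, so whether it is whole EIN2 or its carboxyl-terminal part is uncertain). All 6 RNA libraries came from air, and each line was set against Col, the wild-type accession, with a treatment that no source used here gives. Chromatin bound by an EIN2 antibody (chromatin immunoprecipitation, ChIP) was sequenced from plants with EIN2C-EIN3DB in Col-0 (1 library titled ethylene and 1 titled air) and in ein3-1eil-1 (2 libraries in ethylene and 2 in air). Whole seedlings, kept in darkness at 24 °C until 3 days old, received air or 10 ppm ethylene for 4 h. All 3 lines share the loss of EIN3 and EIL1 and Col does not. Each contrast therefore joins the transgene with the double mutant background, and the effects of these cannot be told apart. Col has no library among the samples, so whether it was grown and sequenced with the lines is unknown. Any difference of growth, batch or library preparation from Col would be joined to each contrast as well. No source used here gives the promoters of the transgenes or the number of independent transformants.

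Cytosolic ribosomes make the proteins of the plant cell outside plastids and mitochondria. Each ribosomal protein of Arabidopsis is usually encoded by a small family of nearly alike genes, and their RNA is abundant in growing and dividing tissue. Plants with a mutation in one member often have pointed or narrow leaves or an arrested embryo, from which many of the locus names come.

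RNA levels are FPKM (fragments scaled by transcript length and by the mapped fragments of the library), deposited as 1 pooled value a line. The deposited tables list only genes that the authors called changed, at 2-fold or more, with 1 FPKM or more and an adjusted p (q) under 0.05. No value per library and no depth was at hand for RNA, so no RNA result here has a replicate check, and nothing says whether the 2 libraries of a line came from separate cultures. A gene absent from a table was not called, which does not show that it was unchanged. The Col levels below are those implied by a line's level and its deposited fold. They differ between tables by constant log2 amounts of 0.41 (EIN2C-EIN3DB over EIN2C-EIN3DBK245N) and 0.36 (EIN2C-EIN3DB over EIN2S645A), so levels are not compared across tables. Per-gene q values of members listed in all 3 tables were 0.000185 in the EIN2C-EIN3DB, 0.000315 in the EIN2C-EIN3DBK245N and 0.000224 in the EIN2S645A table, the values that go with the smallest p the authors' deposited table of each line holds (5e-05).

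Every listing of one of the 57 genes in these tables was of a higher level in the line than in Col. In EIN2C-EIN3DB 48 of the 57 were listed higher and 0 lower, where 9.93% of all nuclear protein-coding genes were higher and 9.70% lower (19.6% listed). In EIN2C-EIN3DBK245N 11 were higher and 0 lower, where 6.41% of all genes were higher and 6.33% lower (12.7% listed). In EIN2S645A 41 were higher and 0 lower, where 11.8% of all genes were higher and 13.9% lower (25.7% listed). These shares are given as background only, since the members were chosen with these contrasts known.

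The median fold of the listed members also differed between lines, but over different sets of genes, each cut at the 2-fold minimum. With 1 pooled value a line, these differences were not tested. Listed members of EIN2C-EIN3DB had a median of 339 FPKM (28.3 to 711) in the line, against 98.4 FPKM implied for Col (11.6 to 342), and a median log2 fold of 1.61 in the authors' deposited table (1.06 to 3.57). In EIN2C-EIN3DBK245N the median was 141 FPKM (42.4 to 304) in the line and 58.5 FPKM in Col, with a median log2 fold of 1.26 in the authors' deposited table (1.02 to 2.60). For EIN2S645A the median was 431 FPKM (60.5 to 1843) in the line and 73.1 FPKM in Col (9.17 to 265), with a median log2 fold of 2.32 in the authors' deposited table (1.01 to 5.23). Over all genes listed higher, the median log2 fold in the authors' deposited table was 1.55 in EIN2C-EIN3DB, 1.48 in EIN2C-EIN3DBK245N and 1.84 in EIN2S645A. A fold of at least 4 was reached by 12 members in EIN2C-EIN3DB (2.88% of all genes), 2 in EIN2C-EIN3DBK245N (1.59%) and 29 in EIN2S645A (5.23%), by the authors' deposited table of each line.

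**Figure D1:**
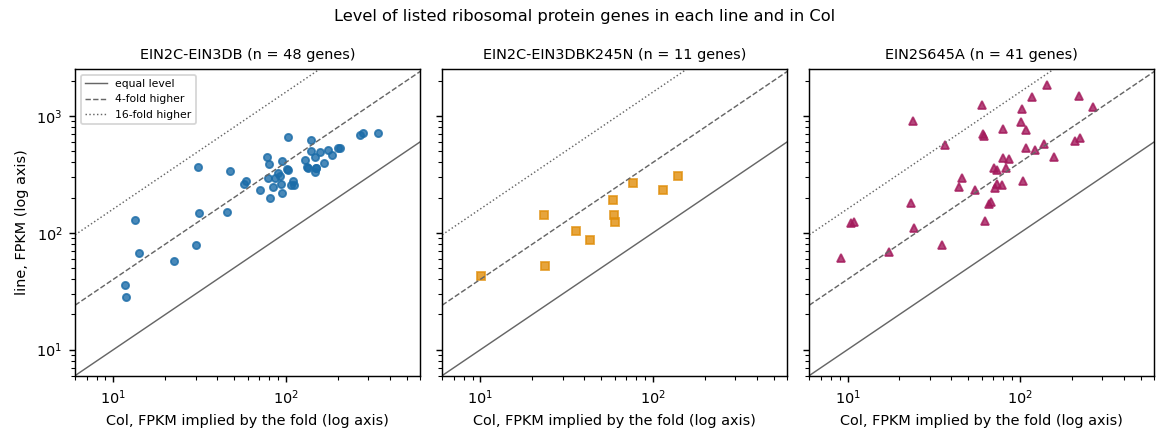
FPKM of each listed ribosomal protein gene in the line (vertical, log axis) against the Col FPKM implied by its deposited fold (horizontal, log axis), 1 point a gene and 1 panel a line; solid, dashed and dotted lines mark equal levels, 4-fold and 16-fold higher. All points lie above the line of equal levels, and 12, 2 and 29 genes reach 4-fold in EIN2C-EIN3DB, EIN2C-EIN3DBK245N and EIN2S645A.

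The members fell into a few patterns of listing. A set of 11 was listed for all lines, and 29 more were listed in EIN2C-EIN3DB and EIN2S645A. Only EIN2C-EIN3DB listed 8, namely RPL5B, RPL16A, RPL23AA, RPS6, EMB3010, emb2386, AT2G47610 and AT3G62870, and only EIN2S645A listed 1, AT1G70600. No member was listed in EIN2C-EIN3DBK245N without being listed in both other tables. The 8 listed nowhere were RP1 and RPL3B (both genes of ribosomal protein L3 by their names), ATL5 (RPL5A), RPSAb, AT2G40010, AT3G09630, AT4G36130 and AT5G02870.

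**Figure D2:**
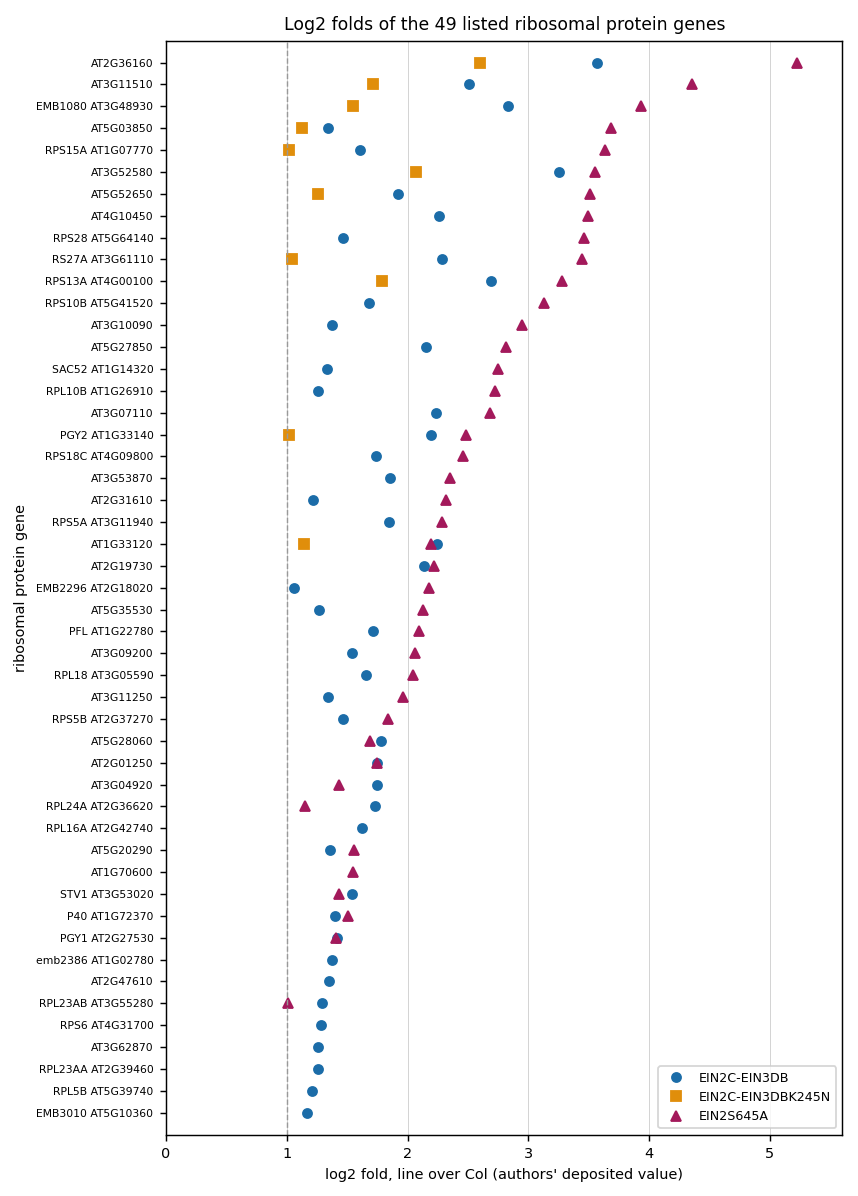
Log2 fold over Col (horizontal) of the 49 ribosomal protein genes listed in at least 1 table, ordered by their largest fold, with a circle for EIN2C-EIN3DB, a square for EIN2C-EIN3DBK245N and a triangle for EIN2S645A; a missing symbol means that the gene was not listed, and the dashed line is the 2-fold minimum of the tables. The squares are the leftmost symbol of all 11 genes that have one, and AT2G36160 has the largest fold in each line.

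Of the 11 genes in all 3 tables, AT2G36160 had the largest fold in every line. Its locus lies on chromosome 2 at 15169818 to 15171353 (TAIR10, deposited locus), and no other annotated gene overlaps it. In EIN2C-EIN3DB it had 367 FPKM in the line and 31.0 FPKM in Col, a log2 fold of 3.57 in the authors' deposited table. In EIN2C-EIN3DBK245N it had 142 FPKM in the line and 23.4 FPKM in Col, a log2 fold of 2.60 in the authors' deposited table. With 903 FPKM in EIN2S645A and 24.1 FPKM in Col, its log2 fold was 5.23 in the authors' deposited table. Among all genes listed higher this was rank 93 in EIN2C-EIN3DB, 157 in EIN2C-EIN3DBK245N and 21 in EIN2S645A.

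AT3G52580 and AT3G11510 also had large folds. The gene table names neither of them nor AT2G36160, and whether they are paralogs that share reads was not examined. AT3G52580 (chromosome 3, 19503223 to 19504973) was a low gene in Col. It had 128 FPKM in EIN2C-EIN3DB and 13.4 FPKM in Col, a log2 fold of 3.25 in the authors' deposited table. Its level was 42.4 FPKM in EIN2C-EIN3DBK245N and 10.1 FPKM in Col (log2 2.07 in the authors' deposited table), and 122 FPKM in EIN2S645A and 10.4 FPKM in Col (log2 3.55). AT3G11510 (chromosome 3, 3623457 to 3624940) stood higher throughout. It had 442 FPKM in EIN2C-EIN3DB and 77.6 FPKM in Col, a log2 fold of 2.51 in the authors' deposited table. In EIN2C-EIN3DBK245N its 192 FPKM stood against 58.5 FPKM in Col (log2 1.72 in the authors' deposited table), and in EIN2S645A its 1231 FPKM stood against 60.3 FPKM in Col (log2 4.35).

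Named genes of the small subunit made up several of the 11. RPS13A encodes ribosomal protein S13 (chromosome 4, 37084 to 38312). It had 660 FPKM in EIN2C-EIN3DB and 102 FPKM in Col (log2 2.69 in the authors' deposited table), 266 FPKM in EIN2C-EIN3DBK245N and 77.0 FPKM in Col (log2 1.79), and 770 FPKM in EIN2S645A and 79.3 FPKM in Col (log2 3.28). AT4G00090 overlaps this locus, so some of its reads may belong to that gene. RPS15A encodes cytoplasmic S15A (chromosome 1, 2408203 to 2409580). It had 448 FPKM in EIN2C-EIN3DB and 148 FPKM implied for Col (log2 1.60 in the authors' deposited table), 231 FPKM in EIN2C-EIN3DBK245N and 114 FPKM in Col (log2 1.02), and 1457 FPKM in EIN2S645A and 117 FPKM in Col (log2 3.64). Its implied Col level in EIN2C-EIN3DB departs slightly from the constant shift between tables, so that fold is approximate. RS27A, a gene of ribosomal protein S27 (chromosome 3, 22611634 to 22612904), had 388 FPKM in EIN2C-EIN3DB and 79.4 FPKM in Col (log2 2.29 in the authors' deposited table), 123 FPKM in EIN2C-EIN3DBK245N and 59.8 FPKM in Col (log2 1.04), and 672 FPKM in EIN2S645A and 61.7 FPKM in Col (log2 3.44). RPS15A and RS27A were thus just past the 2-fold minimum in EIN2C-EIN3DBK245N, with their largest folds in EIN2S645A.

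EMB1080, a locus named for an embryo-defective mutant (chromosome 3, 18140771 to 18142281), had 336 FPKM in EIN2C-EIN3DB and 47.3 FPKM in Col (log2 2.83 in the authors' deposited table), 104 FPKM in EIN2C-EIN3DBK245N and 35.6 FPKM in Col (log2 1.55), and 559 FPKM in EIN2S645A and 36.7 FPKM in Col (log2 3.93). It overlaps AT3G48920. PGY2 is PIGGYBACK2, a locus first known for leaves with outgrowths in sensitised plants (chromosome 1, 12023275 to 12024783). It had 261 FPKM in EIN2C-EIN3DB and 57.2 FPKM in Col (log2 2.19 in the authors' deposited table), 87.4 FPKM in EIN2C-EIN3DBK245N and 43.1 FPKM in Col (log2 1.02), and 248 FPKM in EIN2S645A and 44.4 FPKM in Col (log2 2.48). Its neighbour among the members, AT1G33120 (chromosome 1, 12010901 to 12012524), was lower in level. It had 148 FPKM in EIN2C-EIN3DB and 31.2 FPKM in Col (log2 2.25 in the authors' deposited table), 51.8 FPKM in EIN2C-EIN3DBK245N and 23.5 FPKM in Col (log2 1.14), and 111 FPKM in EIN2S645A and 24.2 FPKM in Col (log2 2.19). Both loci overlap another annotated gene, AT1G06647 for PGY2 and AT1G06643 for AT1G33120.

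The last of the 11 were AT5G52650 and AT5G03850. AT5G52650 (chromosome 5, 21355555 to 21357105) had 296 FPKM in EIN2C-EIN3DB and 78.4 FPKM in Col (log2 1.92 in the authors' deposited table), 141 FPKM in EIN2C-EIN3DBK245N and 59.1 FPKM in Col (log2 1.26), and 695 FPKM in EIN2S645A and 60.9 FPKM in Col (log2 3.51). AT5G03850 (chromosome 5, 1028340 to 1029121) had 466 FPKM in EIN2C-EIN3DB and 184 FPKM in Col (log2 1.34 in the authors' deposited table), 304 FPKM in EIN2C-EIN3DBK245N and 139 FPKM in Col (log2 1.13), and 1843 FPKM in EIN2S645A and 143 FPKM in Col (log2 3.69). The level in EIN2S645A was the highest of any listed member in that table.

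Set side by side, the fold was smallest in EIN2C-EIN3DBK245N for 11 of these 11 genes. It was larger in EIN2S645A than in EIN2C-EIN3DB for 10 of the 11, the exception being AT1G33120. The medians of these 11 genes were log2 2.29 in EIN2C-EIN3DB, 1.26 in EIN2C-EIN3DBK245N and 3.55 in EIN2S645A in the authors' deposited table of each line. Summed over them, the level was 3941 FPKM in EIN2C-EIN3DB against 850 FPKM in Col, 1684 FPKM in EIN2C-EIN3DBK245N against 643 FPKM in Col, and 8613 FPKM in EIN2S645A against 662 FPKM in Col. The 3 contrasts share Col, and no test of the difference between lines could be made from pooled values. A gene that passed the 2-fold minimum in each table was compared, so weaker genes are not in this ordering.

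Among the 40 members listed in both EIN2C-EIN3DB and EIN2S645A, the fold was larger in EIN2S645A for 33 and larger in EIN2C-EIN3DB for 7. For 17 of the 40 the log2 folds of the lines lay within 0.5 of each other. Several others had folds far apart. RPS28 had 1136 FPKM in EIN2S645A and 103 FPKM in Col (log2 3.46 in the authors' deposited table), and 366 FPKM in EIN2C-EIN3DB and 133 FPKM in Col (log2 1.46). It overlaps AT5G64150. RPS10B had 883 FPKM in EIN2S645A and 101 FPKM in Col (log2 3.13 in the authors' deposited table), and 415 FPKM in EIN2C-EIN3DB and 130 FPKM in Col (log2 1.68). AT3G10090 had 181 FPKM in EIN2S645A and 23.4 FPKM in Col (log2 2.95 in the authors' deposited table), and 78.0 FPKM in EIN2C-EIN3DB and 30.1 FPKM in Col (log2 1.37).

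By subunit, as far as the gene table states it, 13 members are of the small and 12 of the large subunit, and 32 carry no statement. Of the small-subunit members 12 were listed in EIN2C-EIN3DB (median log2 1.64), 3 in EIN2C-EIN3DBK245N (median 1.04) and 10 in EIN2S645A (median 2.79), by the authors' deposited table of each line. The members stated as large-subunit gave 9 in EIN2C-EIN3DB (median log2 1.33), 0 in EIN2C-EIN3DBK245N and 6 in EIN2S645A (median 1.74), by the authors' deposited table of each line. Of the members with no stated subunit 27, 8 and 25 were listed in EIN2C-EIN3DB, EIN2C-EIN3DBK245N and EIN2S645A. Each of these also belongs to the large or the small subunit. The 0 therefore does not show that no large-subunit gene was listed, and the subunits are not compared.

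Among paralogs of the small subunit, both genes of S18 and both of S5 were listed in EIN2C-EIN3DB and EIN2S645A. PFL, the POINTED FIRST LEAF gene of ribosomal protein S18, had 232 FPKM in EIN2C-EIN3DB and 70.7 FPKM in Col (log2 1.72 in the authors' deposited table), and 234 FPKM in EIN2S645A and 54.9 FPKM in Col (log2 2.09). Its paralog RPS18C had 341 FPKM in EIN2C-EIN3DB and 102 FPKM in Col (log2 1.74 in the authors' deposited table), and 437 FPKM in EIN2S645A and 79.6 FPKM in Col (log2 2.46). The RPS18C locus of 3579 bp is the longest of the listed members and includes the neighbour AT4G09810. RPS5A, known for its high activity in dividing cells, had 500 FPKM in EIN2C-EIN3DB and 140 FPKM in Col (log2 1.84 in the authors' deposited table), and 528 FPKM in EIN2S645A and 109 FPKM in Col (log2 2.28). RPS5B stood lower, with 259 FPKM in EIN2C-EIN3DB and 94.0 FPKM in Col (log2 1.46 in the authors' deposited table), and 261 FPKM in EIN2S645A and 73.1 FPKM in Col (log2 1.84).

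Ribosomal protein S6 is the small-subunit protein that S6 kinase phosphorylates downstream of TOR, a kinase that couples nutrients to growth. Both of its genes were listed in EIN2C-EIN3DB and in no other table. RPS6 had 361 FPKM in EIN2C-EIN3DB and 149 FPKM in Col, a log2 fold of 1.28 in the authors' deposited table. EMB3010 (RPS6B) had 331 FPKM in EIN2C-EIN3DB and 147 FPKM in Col, a log2 fold of 1.17 in the authors' deposited table. P40, a gene of ribosomal protein SA, had 531 FPKM in EIN2C-EIN3DB and 201 FPKM in Col (log2 1.40 in the authors' deposited table), and 444 FPKM in EIN2S645A and 156 FPKM in Col (log2 1.51), while its paralog RPSAb was not listed.

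In the large subunit, some families were listed in part or not at all. Neither gene of L3 was listed, and of the pair for L5, which carries the 5S ribosomal RNA, RPL5B alone was listed. It had 221 FPKM in EIN2C-EIN3DB and 95.4 FPKM in Col, a log2 fold of 1.21 in the authors' deposited table. SAC52 (RPL10A) is a gene of L10 at which a suppressor of the acaulis dwarf was found. It had 708 FPKM in EIN2C-EIN3DB and 281 FPKM in Col (log2 1.33 in the authors' deposited table), and 1465 FPKM in EIN2S645A and 219 FPKM in Col (log2 2.74). RPL10B was at a much lower level with nearly the same folds: 28.3 FPKM in EIN2C-EIN3DB and 11.8 FPKM in Col (log2 1.26 in the authors' deposited table), and 60.5 FPKM in EIN2S645A and 9.17 FPKM in Col (log2 2.72). RPL16A had 35.8 FPKM in EIN2C-EIN3DB and 11.6 FPKM in Col (log2 1.62 in the authors' deposited table). It was not listed in the other lines. Its paralog RPL16B, which is not among the members, was listed in EIN2C-EIN3DB and EIN2S645A. RPL16B had 497 FPKM in EIN2C-EIN3DB and 115 FPKM in Col (log2 2.11 in the authors' deposited table). In EIN2S645A it had 802 FPKM against 89.4 FPKM in Col (log2 3.17).

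A few large-subunit genes had the larger fold in EIN2C-EIN3DB. RPL24A had 151 FPKM in EIN2C-EIN3DB and 45.5 FPKM in Col (log2 1.73 in the authors' deposited table), and 78.3 FPKM in EIN2S645A and 35.4 FPKM in Col (log2 1.15). It overlaps AT2G36610. Its paralog STV1, SHORT VALVE1, which acts in gynoecium patterning, had 244.9 FPKM in EIN2C-EIN3DB and 84.5 FPKM in Col (log2 1.54 in the authors' deposited table), and 177 FPKM in EIN2S645A and 65.6 FPKM in Col (log2 1.43). RPL23AA had 398 FPKM in EIN2C-EIN3DB and 166 FPKM in Col (log2 1.26 in the authors' deposited table) and was listed in no other line. RPL23AB had 197 FPKM in EIN2C-EIN3DB and 80.8 FPKM in Col (log2 1.29 in the authors' deposited table), and 126 FPKM in EIN2S645A and 62.8 FPKM in Col. At log2 1.01 in EIN2S645A in the authors' deposited table, RPL23AB was the listed member nearest to the 2-fold minimum.

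**Figure D3:**
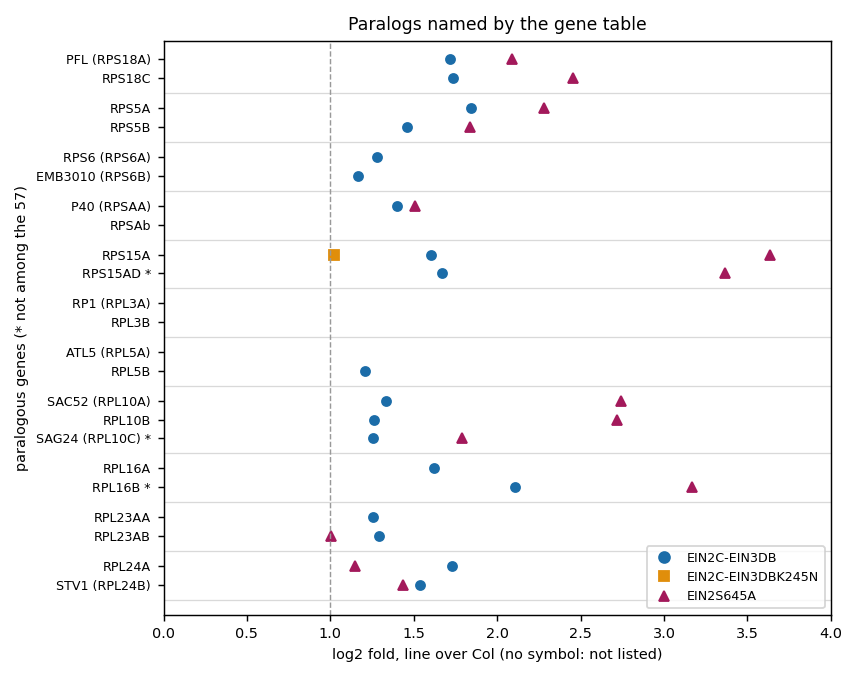
Log2 fold over Col (horizontal) of paralogous ribosomal protein genes that the gene table names, grouped by protein, with a circle for EIN2C-EIN3DB, a square for EIN2C-EIN3DBK245N and a triangle for EIN2S645A; genes with an asterisk are not among the 57, and a row with no symbol was not listed. RPL10A and RPL10B lie together in both lines, and only RPL5B of the L5 pair has a symbol. RPL10C, outside the 57, lies near them in EIN2C-EIN3DB (log2 1.25) and lower in EIN2S645A (log2 1.79). Paralogs can share reads, so how the counts were divided within a family is uncertain.

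The members with the smallest folds included abundant genes. EMB2296, another embryo-defective locus, had 711 FPKM in EIN2C-EIN3DB and 342 FPKM in Col, the highest member in that table, with the smallest log2 fold there of 1.06 in the authors' deposited table. In EIN2S645A EMB2296 had 1201 FPKM against 265 FPKM in Col (log2 2.18 in the authors' deposited table). AT2G31610 had 258 FPKM in EIN2C-EIN3DB and 111 FPKM in Col (log2 1.22 in the authors' deposited table), and 431 FPKM in EIN2S645A and 86.3 FPKM in Col (log2 2.32). At the low end of EIN2S645A, PGY1 (PIGGYBACK1) had 275 FPKM in the line and 104 FPKM in Col (log2 1.40 in the authors' deposited table), and AT3G04920 had 182 FPKM in the line and 67.5 FPKM in Col (log2 1.43). In EIN2C-EIN3DB, PGY1 had 356 FPKM and Col 134 FPKM (log2 1.41 in the authors' deposited table), and AT3G04920 had 291 FPKM and Col 86.9 FPKM (log2 1.75). AT1G70600, listed in EIN2S645A alone, had 649 FPKM there and 223 FPKM in Col (log2 1.54 in the authors' deposited table).

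Another 12 genes that the gene table names as ribosomal proteins, and that are not known to be organellar, are outside the 57. Of these, 10 were listed higher in EIN2C-EIN3DB, 5 in EIN2C-EIN3DBK245N and 11 in EIN2S645A, and 0 were lower in any line. With these and 8 further named genes known as organellar, 62 of 77 were higher in EIN2C-EIN3DB, 16 in EIN2C-EIN3DBK245N and 55 in EIN2S645A, and 0 lower. AT2G36170, a ubiquitin and L40 fusion gene (RPL40A) and the neighbour of AT2G36160, had 156 FPKM in EIN2C-EIN3DB and 24.5 FPKM in Col (log2 2.67 in the authors' deposited table), 49.9 FPKM in EIN2C-EIN3DBK245N and 18.5 FPKM in Col (log2 1.43), and 157 FPKM in EIN2S645A and 19.1 FPKM in Col (log2 3.04). RPS15AD, a paralog of RPS15A, had 112 FPKM in EIN2C-EIN3DB and 35.1 FPKM in Col (log2 1.67 in the authors' deposited table), and 281 FPKM in EIN2S645A and 27.3 FPKM in Col (log2 3.36).

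Translation factors were listed higher more often than lower in each line. Of 27 factors, 12 were higher and 1 lower in EIN2C-EIN3DB, 4 higher and 0 lower in EIN2C-EIN3DBK245N, and 16 higher and 2 lower in EIN2S645A. As shares, 44.4% were higher in EIN2C-EIN3DB (9.93% of all genes), 14.8% in EIN2C-EIN3DBK245N (6.41%) and 59.3% in EIN2S645A (11.8%). FBR12, a gene of the factor eIF5A, had 1211 FPKM in EIN2C-EIN3DB and 388 FPKM in Col (log2 1.64 in the authors' deposited table), 682 FPKM in EIN2C-EIN3DBK245N and 293 FPKM in Col (log2 1.22), and 3301 FPKM in EIN2S645A and 302 FPKM in Col (log2 3.45). AT1G07940 had log2 1.79 in EIN2C-EIN3DB, 1.31 in EIN2C-EIN3DBK245N and 3.33 in EIN2S645A in the authors' deposited table of each line. RACK1B, a scaffold protein of the small subunit, had log2 1.39 in EIN2C-EIN3DB and 2.93 in EIN2S645A in the authors' deposited table. EIF4G, the scaffold of the cap-binding complex, was lower, at log2 -1.13 in EIN2C-EIN3DB and -1.53 in EIN2S645A in the authors' deposited table.

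Ribosome biogenesis genes, whose products process ribosomal RNA and assemble the subunits, were mostly not listed. Of 26 genes, 8 were higher and 0 lower in EIN2C-EIN3DB (30.8% higher, against 9.93% of all genes). In EIN2C-EIN3DBK245N 2 were higher and 0 lower (7.69% higher, against 6.41%). In EIN2S645A 3 were higher and 6 lower (11.5% higher, against 11.8%). Of all genes, 9.70% were lower in EIN2C-EIN3DB, 6.33% in EIN2C-EIN3DBK245N and 13.9% in EIN2S645A. FIB2, a fibrillarin that methylates ribosomal RNA, had 54.4 FPKM in EIN2C-EIN3DB and 7.76 FPKM in Col (log2 2.81 in the authors' deposited table), and 58.9 FPKM in EIN2S645A and 6.03 FPKM in Col (log2 3.29). NUC-L1, a nucleolin, was listed in all lines, at log2 2.06 in EIN2C-EIN3DB, 1.13 in EIN2C-EIN3DBK245N and 1.47 in EIN2S645A in the authors' deposited table of each line. Those lower in EIN2S645A were REIL1 (log2 -2.20), the RNA helicase gene MTR4 (-2.01), PRMT3 (-1.90), PUM23 (-1.55), RRP5 (-1.40) and AtNug2 (-1.12) in the authors' deposited table. In EIN2S645A the 6 that were lower had a median locus length of 4526 bp and the 3 that were higher one of 2518 bp.

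The list of the TOR pathway and regulators of ribosomal protein genes held 11 genes. Of these, LST8-1 alone was higher in EIN2C-EIN3DB (log2 1.08 in the authors' deposited table), and TRB3 alone was lower in EIN2C-EIN3DBK245N (log2 -1.29). In EIN2S645A 4 were lower and 0 higher: both S6 kinase genes, PK1 at log2 -1.59 and S6K2 at -1.31 in the authors' deposited table, the telomere repeat binding gene TRB2 at -1.59, and NAC082 at -1.23. The listed share of these genes was 9.09% in EIN2C-EIN3DB (19.6% of all genes), 9.09% in EIN2C-EIN3DBK245N (12.7%) and 36.4% in EIN2S645A (25.7%). With folds centred on the median of all listed genes, the factor, biogenesis and TOR lists together had 19 higher and 1 lower in EIN2S645A, in place of 19 and 12. That median was log2 -1.09, so the centring raises every fold and drops weaker lower calls by construction. The kinase gene TOR itself and its partner RAPTOR1 were not listed in any table.

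Plastid ribosomal proteins, encoded in the nucleus for the ribosomes of the chloroplast, were listed lower in part. Of 29 genes, 0 were higher and 2 lower in EIN2C-EIN3DB, 0 higher and 14 lower in EIN2C-EIN3DBK245N, and 2 higher and 4 lower in EIN2S645A. Of all genes, 9.70% were lower in EIN2C-EIN3DB, 6.33% in EIN2C-EIN3DBK245N and 13.9% in EIN2S645A, so the counts in EIN2C-EIN3DB and EIN2S645A were not above the share of all genes. With folds centred on the median of all listed genes, 2 were higher and 0 lower in EIN2S645A. That median was log2 -1.09, so the centring drops weaker lower calls by construction. PRPL28 was lower in all 3 lines, at log2 -1.16 in EIN2C-EIN3DB, -1.56 in EIN2C-EIN3DBK245N and -1.20 in EIN2S645A in the authors' deposited table of each line. It had 71.2 FPKM in EIN2C-EIN3DBK245N against 211 FPKM in Col. EMB3113 was lower in EIN2C-EIN3DBK245N (log2 -1.40) and EIN2S645A (log2 -1.52) in the authors' deposited table of each line.

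**Figure D4:**
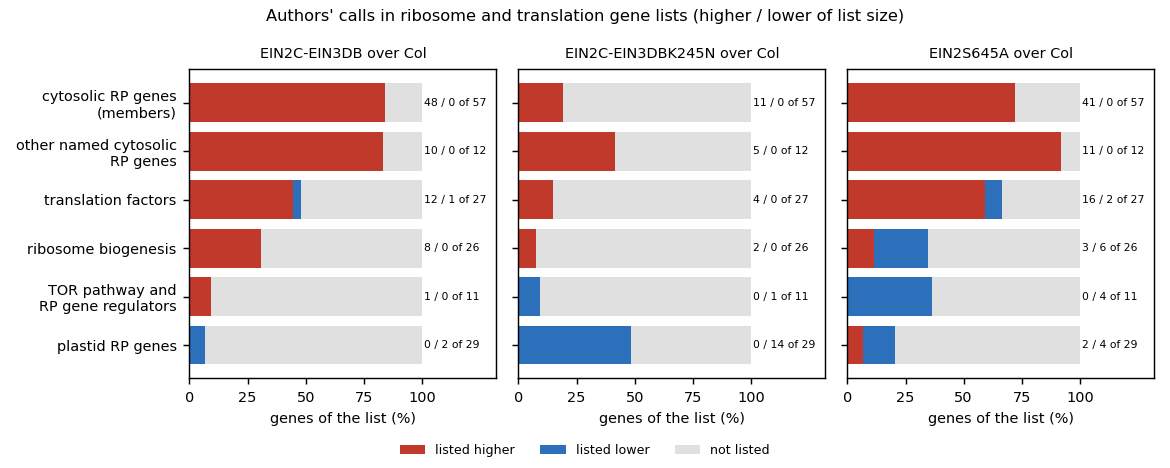
Share of each gene list (%) that the authors listed higher (red), lower (blue) or did not list (grey), 1 panel a line, with the counts higher and lower of the list size at the right of each bar. The bars of cytosolic ribosomal protein genes hold no blue in any line, and the plastid list holds no red in EIN2C-EIN3DB and EIN2C-EIN3DBK245N.

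Genes that mark other cell types were counted in the same way, beside 19.6% of all genes listed in EIN2C-EIN3DB, 12.7% in EIN2C-EIN3DBK245N and 25.7% in EIN2S645A. Of 10 genes of dividing cells, 4 were higher and 0 lower in EIN2C-EIN3DB, with a summed 75.3 FPKM in the line against 31.9 FPKM in Col over the listed genes. In EIN2C-EIN3DBK245N 1 was higher and 0 lower (20.6 FPKM against 9.70 FPKM in Col), and in EIN2S645A 3 were higher and 1 lower (158 FPKM against 80.3 FPKM in Col). Of 6 genes of photosynthetic cells, 5 were higher in every line, with 11603 FPKM in EIN2C-EIN3DB against 1660 FPKM in Col, 9703 FPKM in EIN2C-EIN3DBK245N against 1251 FPKM in Col, and 23711 FPKM in EIN2S645A against 1290 FPKM in Col. These 5 were CAB1, CAB2, CAB3, LHB1B1 and LHCB3, while RBCS1A was listed in no line. The count therefore does not speak for photosynthesis genes as a whole. Of 4 root hair genes, 3 were higher in EIN2C-EIN3DB (15.9 FPKM against 1.53 FPKM in Col) and none was listed in the other lines. Of 5 seed and embryo genes, 1 was higher and 1 lower in EIN2C-EIN3DB (30.2 FPKM against 21.2 FPKM in Col), 4 higher in EIN2C-EIN3DBK245N (304 FPKM against 71.4 FPKM in Col) and 3 higher in EIN2S645A (104 FPKM against 17.9 FPKM in Col). None of the listed marker genes was at 0 FPKM in its line. Their part in the levels of ribosomal protein genes was not tested. In whole seedlings, more cells of a type and more RNA a cell cannot be told apart.

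Listed ribosomal protein genes were short. Their median locus length was 1548 bp in EIN2C-EIN3DB, 1509 bp in EIN2C-EIN3DBK245N and 1511 bp in EIN2S645A. Over all listed genes, those higher had a median locus of 2020.5 bp in EIN2C-EIN3DB, 2291 bp in EIN2C-EIN3DBK245N and 1678.5 bp in EIN2S645A, and those lower had one of 2879, 2454.5 and 3276.5 bp in the same order of lines. The longest listed member was 3579 bp in EIN2C-EIN3DB and EIN2S645A and 1751 bp in EIN2C-EIN3DBK245N, so the next shares are not compared across lines. Of the listed genes outside the 57 that were no longer than the longest listed member, 55.3% were higher in EIN2C-EIN3DB, 53.6% in EIN2C-EIN3DBK245N and 56.9% in EIN2S645A. Of longer ones, 34.0%, 48.7% and 17.7% were higher in the same lines. Of the listed genes outside the 57 with a Col level at or above the median of the listed members, 43.2%, 41.1% and 63.6% were higher in the same lines. Of those within the members' range of length and at or above their lowest Col level, 43.6%, 42.9% and 52.0% were higher in the same lines. Longer loci were thus less often higher in these tables, and the part of length in the folds of the members was not tested.

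**Figure D5:**
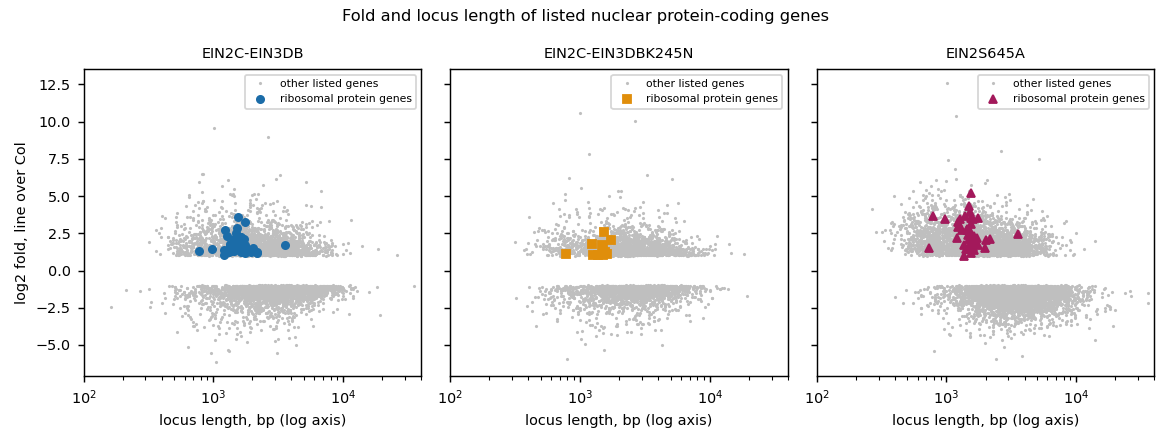
Log2 fold over Col against locus length in bp (log axis) for listed nuclear protein-coding genes, 1 panel a line, with ribosomal protein genes as large coloured symbols and other listed genes as grey points; the empty band lies within the 2-fold minimum. The ribosomal protein genes lie in a narrow band of short loci (737 to 3579 bp), all above 0, while in EIN2S645A the lower genes reach longer loci than the higher ones.

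Few EIN2 ChIP peaks lay at ribosomal protein genes. A peak was counted when it lay in the gene or within 1000 bp of it. In the Col-0 library titled ethylene, 2 of 57 members had a peak, where 4.82% of all nuclear protein-coding genes had one. In the Col-0 library titled air, 1 of 57 had a peak, where 3.10% of all genes had one. In ein3-1eil-1 none of the 57 had a peak in the ethylene libraries (0.554% and 0.565% of all genes) or in the air libraries (0.681% and 0.736%). At such shares of all genes, 57 genes are too few to show whether peaks were scarcer at the members.

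The authors' lists held 1510 peaks in the Col-0 ethylene library and 841 in the Col-0 air library, from 4713282 and 3743192 tags kept after removal of duplicates. At AT5G03850 the Col-0 ethylene peak (chromosome 5, 1027988 to 1028060) lay inside the gene by the bounds of the gene table and 280 bp outside its deposited locus, with the authors' fold enrichment of 3.20, a -log10 p of 4.91 and a -log10 q of 2.06. At AT3G09630, which no RNA table lists, the Col-0 ethylene peak (chromosome 3, 2955725 to 2955797) had a fold enrichment of 3.14, a -log10 p of 5.18 and a -log10 q of 2.30, and it also lay within 1000 bp of AT3G09640. At AT1G70600 the Col-0 air peak (chromosome 1, 26620074 to 26620231) lay 590 bp outside the gene by the gene table and 692 bp outside its deposited locus, with a fold enrichment of 3.33, a -log10 p of 5.15 and a -log10 q of 1.81, and AT1G70590 was also within 1000 bp. Comment lines of the same lists say that q was left uncalculated, so the q values, read here as their column is named, are uncertain. Median fold enrichment over all peaks was 3.06 in the Col-0 ethylene and 3.12 in the Col-0 air library, against 3.20, 3.14 and 3.33 for these peaks. Each Col-0 condition had 1 library, so ethylene and air were not compared.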

How the data were processed

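RNA libraries (6), EIN2 antibody ChIP libraries (6) and inputs (4) were analysed from deposited files, grouped by sample titles. Other labels differ: the agent of the Col-0 air samples reads ethylene, the genotype of the Col-0 ethylene input reads ein3-1eil-1, and the S645A line has several spellings. Per the submitters' processing notes, the authors used Cuffdiff 2.2.1 and the TAIR10 genome for the FPKM, 1 pooled value a line. Per the file headers, each called gene has a deposited log2 fold with its p-value and q-value. The table of EIN2C-EIN3DBK245N gives Col over the line, and its sign was turned. Col has no library among the samples, and 3 Col value columns were not used. Peaks were called by the authors library by library (MACS2 2.1.0.20150603, p of 0.001), per the file headers. Deposited lists hold a pileup signal, a fold enrichment ratio and -log10 p and q, per the file headers. No source used here gives the RNA aligner.

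Calls were counted with pandas 2.3.3 and no test was run, since no value per library was at hand. Counting was checked on simulated tables. Names came from a TAIR10.1 table, which matched 98.1%, 97.6% and 98.6% of listed identifiers in EIN2C-EIN3DB, EIN2C-EIN3DBK245N and EIN2S645A. Members and lists were chosen with earlier results of these data known. Genes named were those listed in all 3 tables, the 5 largest and 5 smallest folds of a table, members with a peak, the leading genes of other lists, and others chosen after their values were seen. Alternatives were a 4-fold minimum, a minimum of 5 FPKM, centred folds, and other flanks and peak limits. Results for some single genes are not reported here.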

Additional observations from a re-analysis of the deposited data

Results flagged for a closer look

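CRU3 (AT4G28520), a seed storage protein gene of the seed and embryo markers, was called in opposite directions in lines of the same background. Its log2 fold over Col was -2.17 in EIN2C-EIN3DB, 3.14 in EIN2C-EIN3DBK245N and 2.76 in EIN2S645A in the authors' deposited table of each line. Its level was only 2.02 FPKM in EIN2C-EIN3DB, against 60.2 FPKM in EIN2C-EIN3DBK245N and 47.8 FPKM in EIN2S645A. Of the 5 seed and embryo markers, 2 were listed in EIN2C-EIN3DB, and the other, OLEO1, was higher there (log2 1.22). The difference between lines was not tested.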

How the results depend on the processing

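Of 114 alternatives to 32 counts, 87 stayed within 1.5 times the count reported and 27 did not. With a fold of at least 4, members higher numbered 12 in EIN2C-EIN3DB and 2 in EIN2C-EIN3DBK245N. Of the 77 ribosomal protein genes, which include the members, 18 and 2 were then higher. The biogenesis, factor and TOR lists together then had 3 higher and 0 lower in EIN2C-EIN3DB, 0 and 0 in EIN2C-EIN3DBK245N, and 9 and 2 in EIN2S645A, and the plastid list had 0 lower in each line and 0 higher in EIN2S645A. Fewer genes pass by construction. Folds were also centred on the median of all listed genes (log2 1.00, 1.01 and -1.09 in EIN2C-EIN3DB, EIN2C-EIN3DBK245N and EIN2S645A), which lies at an edge of the empty band. This gave 12, 2 and 41 members higher. Of the 77 ribosomal protein genes, 18 and 2 were higher in the first 2 lines. Of the 3 lists, 3 and 0 were higher there, and in EIN2S645A 19 were higher and 1 lower (12 lower as reported). Of plastid genes in EIN2S645A, 0 were lower beside 2 higher (4 lower and 2 higher as reported). For higher genes in the first 2 lines, this centring nearly repeats the 4-fold minimum by construction. In EIN2S645A it keeps every higher gene and drops weaker lower ones, also by construction. The centred counts are therefore no independent check. With a level of at least 5 FPKM, 0 genes of the 3 lists were lower in EIN2C-EIN3DBK245N. Without members that overlap another gene, a choice made after seeing the data, 7 members were higher in EIN2C-EIN3DBK245N. Peaks at members numbered 0 in Col-0 air with no flank and 0 in both Col-0 libraries at a -log10 q of at least 5 (a column whose meaning is uncertain). In ein3-1eil-1 they numbered 0 without either replicate and 0 in both.

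No paired analysis was possible because the RNA values are pooled over libraries. Leaving out an RNA replicate, protein identity between paralogs and promoter motifs were not run, since values per library and sequences were not used here. RNA depth is unknown, and 1 library a Col-0 condition limits the peaks.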
